A study of Mus musculus with 56 samples.

Results

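The genes described here are 43 regulators that silence or modify chromatin, out of 24410 genes in the deposited table, measured in single epithelial cells of mouse colon tumors. They were chosen by symbol and fall into 12 histone deacetylases, 11 subunits of the NuRD complex, 10 Polycomb proteins, 4 histone demethylases and corepressors, and 6 enzymes that write or remove DNA methylation. All 43 were matched to a row, and 38 were at 1 TPM or more (a relative level that corrects for transcript length and for the total of each library) in at least 20% of cells, which is 10 of 50. The 5 that were not are Hdac4, Hdac8, Hdac9, Hdac10 and Tet1. In the whole table, 37.6% of genes passed the same filter.

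The series, whose title links PROX1 to quiescent colon cancer stem cells and recurrence, holds 1 group of 56 libraries. They came from a 12-week-old male ApcMin/+ mouse, which carries the truncating Min allele of Apc in all its cells and had drunk 2% dextran sulfate sodium (DSS), a polymer that damages the lining of the colon, for 5 days, starting at 10 weeks. Its 3 tumors were pooled after digestion, DAPI-Cd31-Cd45-Epcam+Cd24+ cells were sorted singly, and only cDNA in which a PCR of 32 cycles found the stem cell marker gene Lgr5 was sequenced. The labels name no second mouse, genotype or treatment and not which tumor a cell came from, so every value below describes cells of 1 mouse and no p-value is given.

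Histone deacetylases remove acetyl groups from histone tails, and NuRD joins such an enzyme to an ATP-driven nucleosome remodeler. Polycomb complexes keep genes silent by methylating histone H3 and ubiquitinating histone H2A, while DNA methyltransferases place methyl groups on cytosine and Tet enzymes oxidize them. In mouse intestine Polycomb proteins are known to be needed by crypt stem and progenitor cells, and in liver cells PROX1 has been described to recruit the demethylase LSD1 (the product of Kdm1a) with NuRD, and the deacetylase HDAC3.

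Before the values, some features of the libraries bear on all results. In 6 pairs of libraries Pearson's r was 0.957 to 0.992, whereas the next highest of the 1540 pairs was 0.782, and each of the 6 pairs was averaged into 1 cell, giving 50 cells in all. Between 1316 and 7234 genes per cell reached 1 TPM, with a median of 5902.5 and only 1 cell under 3000. TPM keep no read depth, so the depth is unknown and an exact 0 is read only as listed at 0. All 8 epithelial markers were seen, with a summed level of 1382 to 17568 TPM per cell, while of the markers of other cells 3 of 7 immune, 2 of 4 endothelial, 3 of 5 fibroblast, 1 of 4 goblet, 2 of 3 tuft and 3 of 3 enteroendocrine genes went unseen at 1 TPM, including Ptprc, Cd3e, Pecam1 and Chga. Others of these were seen, led by the fibroblast receptor gene Pdgfra and the goblet cell gene Agr2 in 25 cells each, the macrophage genes Csf1r in 21 and Cd68 in 10 (up to 243 TPM), and Vwf in 5. The summed immune markers had a median of 0.815 TPM and a highest value of 246 TPM, and the part of such RNA in the results was not tested. The 3 Paneth markers had a median sum of 481 TPM, carried mostly by Mmp7, and 1 cell reached 286573 TPM. The sources used here do not say if reads were counted by strand, so those of opposite genes that share exon bases cannot be told apart. Prox1 shares 1.59% of its exon bases with Prox1os. Among the members this touches Hdac11 (15.4% of its exon bases shared with Gm44002), Rbbp4 (9.10% with Gm26722 and 8.94% with Sync), Eed (6.82% with E230029C05Rik) and Rbbp7 (5.98% with Txlng), and less than 4% of the exon bases of other members seen in 10 or more cells. Hdac1 and Rbbp7 also have processed pseudogenes of near-identical sequence (Gm10093 at 99.4% and Gm6382 at 97.1% identity over the aligned bases), so their values are uncertain where reads of the copies were assigned to them.

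The promoters of 4 members are printed here, because Dnmt1, Ezh2 and Kdm5b lead the relations described further on and Suz12, like Dnmt1 and Ezh2, holds the motif searched, from 250 bases before to 50 after the transcription start (RefSeq, GRCm38.p6). Capitals mark letters of the E2F site, bound by cell cycle transcription factors, searched as TTTGGCGC, TTTCCCGC, TTTGCCGC and TTTCGCGC on both strands. Of the 3 Dnmt1 windows, the 1 that holds such letters is shown.

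Dnmt1, chr9:20952574-20952873, minus strand: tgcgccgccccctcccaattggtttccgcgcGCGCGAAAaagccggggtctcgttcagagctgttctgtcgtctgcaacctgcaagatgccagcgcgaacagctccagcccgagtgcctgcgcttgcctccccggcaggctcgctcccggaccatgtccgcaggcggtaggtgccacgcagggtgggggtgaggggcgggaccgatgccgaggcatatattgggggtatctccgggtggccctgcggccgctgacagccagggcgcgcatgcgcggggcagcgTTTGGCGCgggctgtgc

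Ezh2, chr6:47594981-47595280, minus strand: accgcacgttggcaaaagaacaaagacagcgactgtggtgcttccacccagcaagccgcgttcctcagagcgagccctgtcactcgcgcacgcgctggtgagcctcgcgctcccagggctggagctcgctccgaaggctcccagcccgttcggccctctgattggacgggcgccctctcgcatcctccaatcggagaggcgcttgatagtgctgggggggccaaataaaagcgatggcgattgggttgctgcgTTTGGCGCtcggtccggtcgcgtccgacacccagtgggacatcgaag

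Suz12, chr11:79992856-79993155, plus strand: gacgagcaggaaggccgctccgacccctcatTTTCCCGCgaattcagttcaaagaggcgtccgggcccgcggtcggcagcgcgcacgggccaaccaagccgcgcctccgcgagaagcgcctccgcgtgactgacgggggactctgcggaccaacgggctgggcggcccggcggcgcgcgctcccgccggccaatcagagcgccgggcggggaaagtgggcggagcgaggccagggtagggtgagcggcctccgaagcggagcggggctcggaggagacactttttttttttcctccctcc

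Kdm5b, chr1:134559928-134560227, plus strand: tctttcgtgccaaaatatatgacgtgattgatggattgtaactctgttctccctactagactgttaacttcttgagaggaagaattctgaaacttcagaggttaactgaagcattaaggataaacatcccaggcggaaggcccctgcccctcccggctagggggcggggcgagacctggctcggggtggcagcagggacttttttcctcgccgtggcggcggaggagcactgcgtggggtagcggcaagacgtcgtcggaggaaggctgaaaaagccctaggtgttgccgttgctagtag

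Of the 36 members whose promoter windows were searched (49 windows), only Dnmt1, Ezh2 and Suz12 held these letters in any window. Of all RefSeq promoter windows, 744 of 32851 did (2.26%). The Dnmt1 window held GCGCGAAA, the reverse complement of TTTCGCGC, starting at base -219 and TTTGGCGC starting at base 34 relative to the start. In Ezh2, TTTGGCGC began at base 4, and in Suz12, TTTCCCGC began at base -219. The E-box CACGTG was found in 5 members (Rbbp4, Sirt1, Hdac5, Cbx8 and Dnmt3a) and in 7.15% of all promoter windows. The shares over all promoters count windows, whereas members are counted as genes, so they cannot be compared directly. Kdm5b held neither motif in this window. These matches describe letters and say nothing of binding.

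Most of the regulators were seen in most cells. In 25 or more of the 50 cells, 30 of the 43 members were at 1 TPM or more, against 22.6% of all genes in the table. The number of members seen per cell ran from 7 to 35 with a median of 26, and the lowest count belonged to the cell with 1316 genes. The genes were not chosen to match the level of the table as a whole, so the larger share among them describes the list and is not a test.

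**Figure D1:**
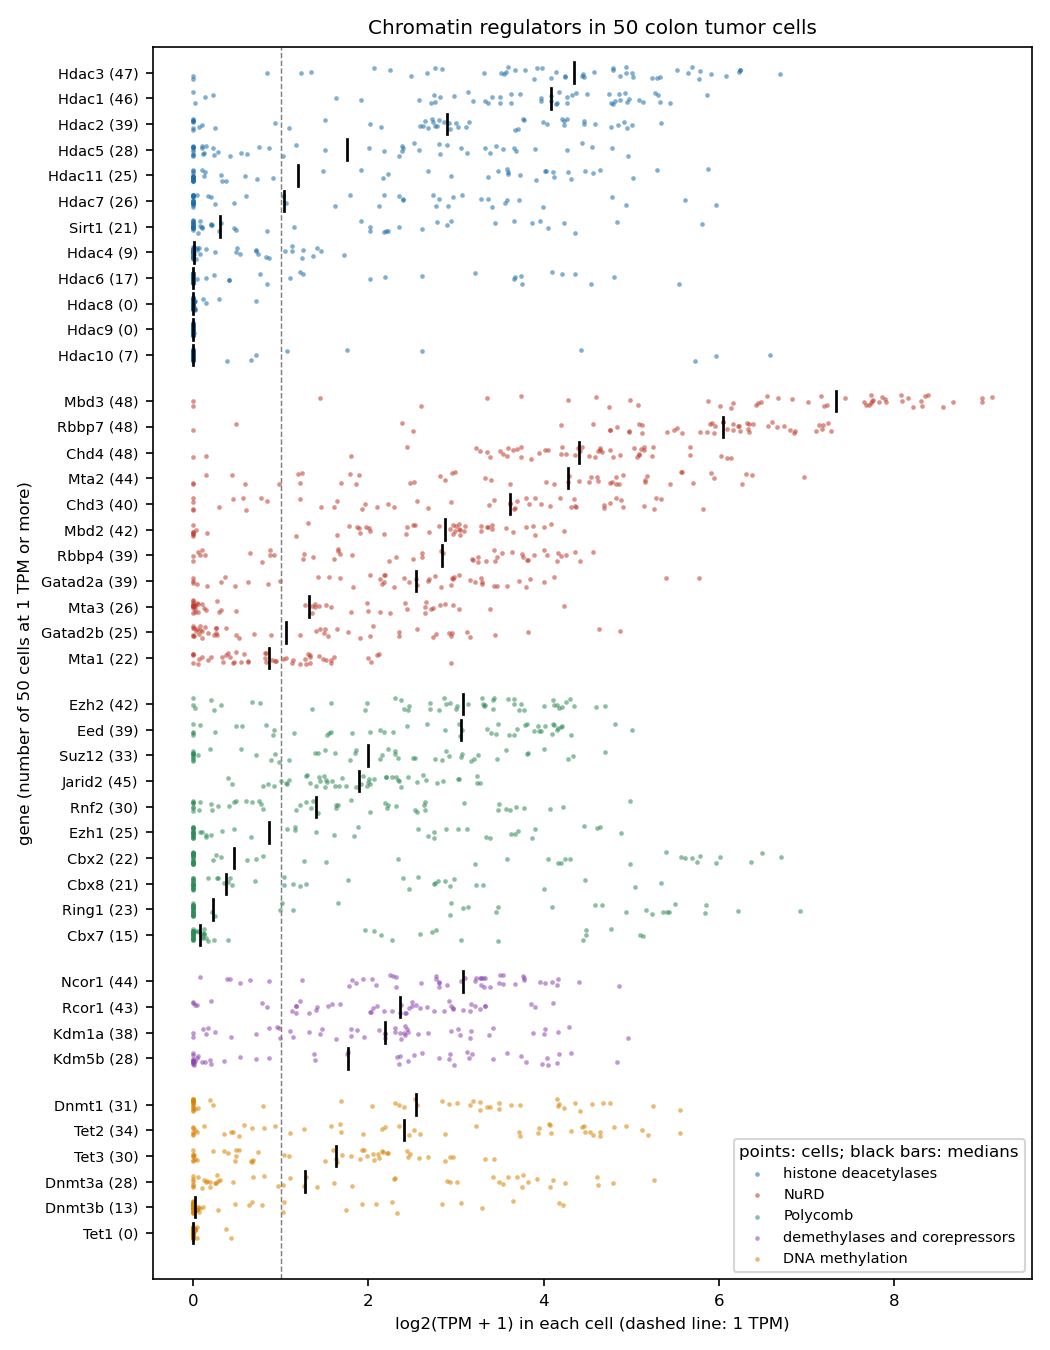
Level of each of the 43 regulators in each of 50 cells, by role, as log2(TPM + 1); points are cells, black bars are medians, the dashed line is 1 TPM and the number of cells at 1 TPM or more follows each name. Mbd3 and Rbbp7 had the highest medians (161 and 65.2 TPM), and Hdac8, Hdac9 and Tet1 reached 1 TPM in no cell.

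Among the deacetylases, the nuclear class I enzymes Hdac3, Hdac1 and Hdac2 were seen in the most cells. Hdac3 (ENSMUSG00000024454, chromosome 18), the catalytic subunit of the nuclear receptor corepressor complex, was seen in 47 cells (94%, exact 95% interval 83.5% to 98.7%), with a lowest level of 0, a median of 19.4 and a highest of 103 TPM. Hdac1 (ENSMUSG00000028800, chr4:129516104-129542713), a catalytic subunit of NuRD, was seen in 46 cells, from 0 through a median of 15.9 to 57.4 TPM. Its close relative Hdac2 (ENSMUSG00000019777, chr10:36974544-37001889) was seen in 39 cells and was lower, with a lowest level of 0, a median of 6.44 and a highest of 39.6 TPM. At least 1 of Hdac1 and Hdac2 was seen in 49 cells and both in 36. The fourth class I gene, Hdac8, was above 0 in 15 cells and never reached 1 TPM (0 of 50 cells, interval up to 7.11%). All such intervals cover counting error only.

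The class II deacetylases, some of which move between nucleus and cytoplasm, were patchier. Hdac5 was seen in 28 cells (lowest 0, median 2.43, highest 30.3 TPM) and Hdac7 in 26 (0, 1.06 and 61.4 TPM). Hdac6, which deacetylates tubulin, was seen in 17 cells and Hdac10, a polyamine deacetylase, in 7, with single cells as high as 45.7 and 94.7 TPM. Hdac4 reached 1 TPM in 9 cells and no more than 2.29 TPM, and Hdac9 was above 0 in 1 cell at 0.01 TPM. The class IV gene Hdac11 was seen in 25 cells (lowest 0, median 1.35, highest 57.7 TPM), of which 18 were at 10 TPM or more, so most cells that had it had a high level. The NAD-dependent deacetylase gene Sirt1 was seen in 21 cells, of which 8 were at 10 TPM or more.

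NuRD subunits were widespread, with all 11 past the filter and a median of 40 cells per gene, against 30 cells over all members. Mbd3 (ENSMUSG00000035478, chr10:80392539-80399550), which holds the remodeling and deacetylase parts of NuRD together, was seen in 48 cells, with a lowest level of 0, a median of 161 and a highest of 554 TPM. Rbbp7 (ENSMUSG00000031353, chrX:162760402-162779092), a histone-binding subunit that NuRD shares with Polycomb complex PRC2, was also seen in 48 cells, at 0, 65.2 and 154 TPM. Chd4 (ENSMUSG00000063870, chr6:125095981-125130591), the main remodeling ATPase, was seen in 48 cells as well, at 0, 20.2 and 69.3 TPM. The medians of Mbd3 and Rbbp7 were the highest of all 43 members. Mta2, a scaffold subunit, followed with 44 cells (median 18.5, highest 124 TPM), then Mbd2, which binds methylated DNA, with 42 (median 6.32), Chd3 with 40 (median 11.2), and Rbbp4 and Gatad2a with 39 each (medians 6.16 and 4.85, highest 22.6 and 53.6 TPM). Mta3, Gatad2b and Mta1 were seen in 26, 25 and 22 cells, and Mta1 never passed 6.69 TPM.

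Within NuRD, cells usually held at least 1 gene of each interchangeable set. Rbbp4 or Rbbp7 was seen in 49 cells, Mbd2 or Mbd3 in 49, Chd3 or Chd4 in 48, any of the 3 Mta genes in 47 and Gatad2a or Gatad2b in 45. At least 1 gene of every set, with Hdac1 or Hdac2, was seen in 42 of 50 cells (84%, interval 70.9% to 92.8%).

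As a group, Polycomb genes were lower than NuRD subunits and more often at 0, with a median of 27.5 against 40 cells per gene. For the deacetylases this median was 23 cells. In PRC2, which methylates histone H3, the cofactor gene Jarid2 (ENSMUSG00000038518, chr13:44729474-44921643) was above 0 in every cell and at 1 TPM or more in 45, yet stayed low, with a lowest level of 0.32, a median of 2.71 and a highest of 8.66 TPM. The catalytic subunit gene Ezh2 (ENSMUSG00000029687, chr6:47530139-47595341) was seen in 42 cells, at 0, 7.45 and 25.1 TPM. Eed (ENSMUSG00000030619, chr7:89954654-89980983), which binds the methylated histone and activates the enzyme, was seen in 39, at 0, 7.32 and 31.2 TPM. Suz12, the structural core subunit, was seen in 33 cells (median 3.01, highest 25.1 TPM). The second catalytic gene, Ezh1, was seen in 25 cells (median 0.84, highest 28.5 TPM). Ezh2 without Ezh1 occurred in 18 cells and Ezh1 without Ezh2 in 1, while 24 cells held both. All parts of a PRC2 core were seen together in 25 of 50 cells (50%, interval 35.5% to 64.5%).

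In PRC1, which ubiquitinates histone H2A, the E3 ligase gene Rnf2 was seen in 30 cells (median 1.64, highest 30.8 TPM) and its relative Ring1 in 23, and 15 cells held both. Cbx2, Cbx8 and Cbx7, chromodomain readers of the PRC2 mark that replace each other in PRC1, were seen in 22, 21 and 15 cells. Cbx8 had a lowest level of 0, a median of 0.30 and a highest of 39.4 TPM, and Cbx7 had 0, 0.058 and 34.1 TPM. The highest single values of Ring1 and Cbx2 were 121 and 104 TPM although both medians were below 1 TPM. Any of the 3 Cbx genes was seen in 37 cells and all 3 in 3 cells. A ligase gene with a Cbx gene was seen in 26 cells (52%, interval 37.4% to 66.3%).

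**Figure D2:**
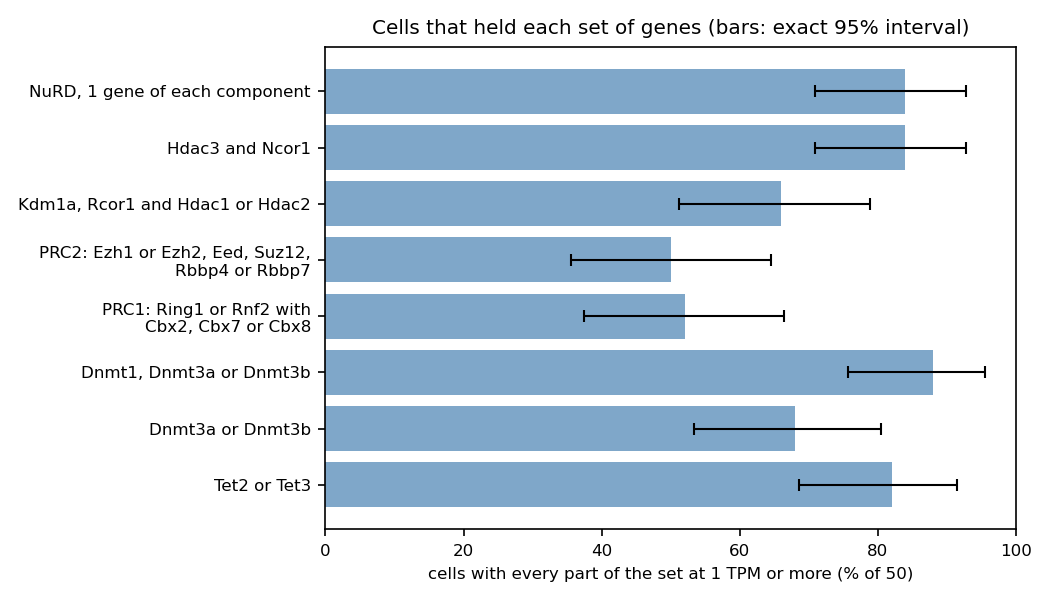
Percent of the 50 cells in which every part of each set of genes was at 1 TPM or more; error bars are exact 95% binomial intervals for counting error. A full NuRD set was seen in 84% of cells, a PRC2 set in 50% and a PRC1 set in 52%.

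The corepressor genes were widespread. Ncor1, the scaffold of the Hdac3 complex, was above 0 in every cell and seen in 44, with a lowest level of 0.06, a median of 7.46 and a highest of 28.1 TPM, and it was seen together with Hdac3 in 42 cells. Rcor1, which tethers LSD1 to nucleosomes, was seen in 43 cells (0, 4.16 and 16.2 TPM). Kdm1a, which encodes LSD1, was seen in 38 (0, 3.58 and 30.3 TPM). Kdm1a and Rcor1 were both seen in 33 cells (66%, interval 51.2% to 78.8%). All of these also had Hdac1 or Hdac2, as did 49 of the 50 cells in all. Genes this frequent share many cells in any case, so these counts do not show a link. Kdm5b (ENSMUSG00000042207, chr1:134560171-134635285), a demethylase of the active mark on histone H3 lysine 4, was seen in 28 cells, with a lowest level of 0, a median of 2.40 and a highest of 27.7 TPM.

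Of the DNA methylation genes, Tet2 was seen in the most cells, 34 (lowest 0, median 4.30, highest 46.1 TPM), followed by the maintenance methyltransferase gene Dnmt1 and by Tet3. Dnmt1 (ENSMUSG00000004099, chr9:20907209-20959888) was seen in 31 cells (62%, interval 47.2% to 75.3%), with a lowest level of 0, a median of 4.84 and a highest of 46.1 TPM, and was listed at 0 in 14. Tet3 was seen in 30 cells and stayed below 10 TPM (0, 2.11 and 9.78 TPM). The de novo methyltransferase genes Dnmt3a and Dnmt3b were seen in 28 and 13 cells, and together in 7, and Dnmt3a had a lowest level of 0, a median of 1.43 and a highest of 37.2 TPM. Some Dnmt gene was seen in 44 cells, and 6 held none. Tet1 reached 1 TPM in 0 cells, with a highest value of 0.35 TPM.

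Relations were read as Spearman's rho across the 50 cells, on log2(TPM + 1), with Prox1, with the mean of 22 S phase genes and with the mean of 30 G2/M genes, over the 38 members that passed the filter. A relation past 0.3 or -0.3 was counted. The points share libraries and a mouse, and genes detected per cell moved with the cycle lists (rho 0.67 with the S phase list, 0.57 with the G2/M list) but little with Prox1 (-0.09). Prox1 itself went against the S phase list (-0.43). The leading relations are therefore given also within index groups, the short barcodes used in library preparation, and as partial rho. The 4 index groups are i7 N704 to N707 (32 cells), i7 N708 to N710 (18), i5 N502 to N505 (26) and i5 N506 to N517 (27), and 3 averaged pairs of libraries fall in both i5 groups. Each cell lies in an i7 group and again in an i5 group, so the 4 values of a gene are not separate observations. The i7 groups differed in the cycle and in Prox1: 10 of 18 cells of N708 to N710 and 5 of 32 of N704 to N707 had an S phase mean of 3.25 or more, and the median of Prox1 was 9.24 and 19.3 TPM. What the index groups stand for is not given in the labels.

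With Prox1, 7 of 38 members were past 0.3 (18.4%), where 8.58% of all genes tested were, and 1 was past -0.3 (2.63%), where 3.26% were. The median rho over the members was 0.10, against 0.05 over all genes. The members were chosen with earlier results of these data known and were not matched to all genes in level. These shares and those further on therefore describe the list and are not tests. Prox1 (ENSMUSG00000010175, chr1:190118035-190170714) was seen in 41 cells, with a lowest level of 0, a median of 14.7 and a highest of 66.8 TPM. Those past 0.3 came from 4 of the 5 role groups, and no NuRD subunit was among them.

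Kdm5b, whose levels are given above, had the highest rho with Prox1, 0.51 (percentile 99.5 of all genes tested). Kdm5b was seen in 26 of 41 cells with Prox1 and in 2 of 9 without it (interval 2.81% to 60.0%). These 9 cells include the cell with 1316 genes, another with 3935, and several with high S phase means (up to 6.21). The part of gene number and of the cycle in this count, and in those for other members below, was not tested. For Kdm5b, Pearson's r was 0.45, and 0.46 after leaving out the 2 cells farthest from the Prox1 median. In the 4 index groups rho was 0.31 to 0.67, and partial rho given the S phase list was 0.41. It was 0.42 among the 35 cells with low S phase means but -0.08 among the 15 with high ones, which are separated further on. The i7 groups also differed in Kdm5b, which was seen in 22 of 32 cells of N704 to N707 and in 6 of 18 of N708 to N710, and their part in the pooled value was not tested beyond the values within them.

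Hdac11 and Hdac5 followed at 0.44 and 0.43. Hdac5 was seen in 27 of 41 cells with Prox1 and in 1 of 9 without it, and Hdac11 in 23 of 41 and 2 of 9. The intervals for the 9 cells were wide, 0.281% to 48.2% for Hdac5 and 2.81% to 60.0% for Hdac11. Across index groups rho was 0.24 to 0.64 for Hdac5 and 0.25 to 0.65 for Hdac11, and given the S phase list it was 0.38 and 0.47. Both genes thus kept a positive value in each group of libraries. Below the gap in S phase means described further on (35 cells) rho was 0.26 for Hdac5 and 0.44 for Hdac11, and above it (15 cells) 0.38 and 0.12. Hdac5 is a class IIa enzyme that is exported from the nucleus on phosphorylation, and Hdac11 removes fatty acyl groups from proteins as well as acetyl groups.

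The Polycomb subunit gene Eed (rho 0.39), the methyltransferase gene Dnmt3a (0.37), Kdm1a (0.32) and Tet2 (0.31) completed the 7. Eed lay between 0.23 and 0.53 in the index groups, Dnmt3a between 0.30 and 0.43 and Kdm1a between 0.09 and 0.58. Tet2 did not keep its sign, with -0.10 to 0.59. Given the S phase list, Eed was at 0.41 and Dnmt3a at 0.35, whereas Kdm1a and Tet2 were below the threshold, at 0.24 and 0.22. Kdm1a was seen in 35 of 41 cells with Prox1 and in 3 of 9 without it (interval 7.49% to 70.1%). Below the gap in S phase means (35 cells), rho with Prox1 was 0.04 for Kdm1a, 0.17 for Tet2, 0.40 for Eed and 0.39 for Dnmt3a. Above it (15 cells) these were at 0.32, 0.63, 0.32 and 0.26.

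Dnmt1 was the lowest member with Prox1, at -0.36 (percentile 1.41), and the only one past -0.3. It was -0.39 to -0.20 in the index groups, but given the S phase list it was -0.08, and Dnmt1 was seen in 25 of 41 cells with Prox1 and in 6 of 9 without it. Next lowest were Rbbp7 (-0.16), Cbx8 (-0.15), Ezh1 (-0.12) and Mta2 (-0.09), which are too weak to read. For the partners described in liver, rho with Prox1 was 0.06 for Hdac3, 0.25 for Chd4 and 0.06 for Hdac1. Kdm1a was at 0.32, as above. Chd4 did not keep its sign in the index groups (-0.24 to 0.40) and was at 0.11 given the S phase list. The median over the 11 NuRD subunits was 0.03.

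**Figure D3:**
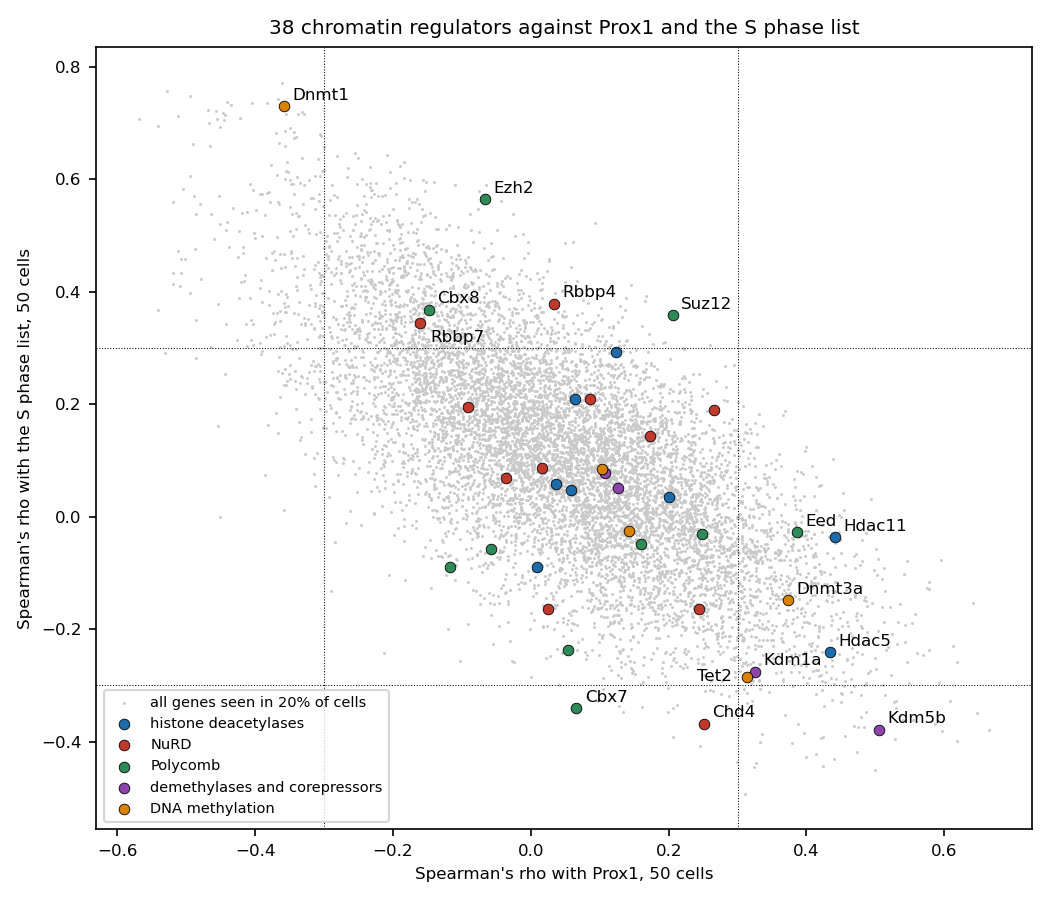
Spearman's rho of each of 38 regulators across 50 cells, with Prox1 on the horizontal axis and with the S phase list on the vertical axis, colored by role over small grey points for all genes tested; dotted lines mark 0.3 and -0.3. Of the regulators, only Dnmt1 combines an S phase rho past 0.3 (0.73) with a Prox1 rho past -0.3 (-0.36), and Kdm5b lies opposite (-0.38 and 0.51).

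With the S phase list, 6 of 38 members were past 0.3 (15.8%), which is near the 15.1% of all genes, and 3 were past -0.3 (7.89%), where 0.862% of all genes were. The count of positive members is thus close to the background. The median over the members was 0.04, against 0.11 over all genes.

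The highest was Dnmt1, at 0.73, percentile 99.9 of all genes tested. It was seen in 19 of 19 cells with the replicative helicase gene Mcm5 (interval 82.4% to 100%), against 12 of 31 cells lacking it (38.7%, interval 21.9% to 57.8%). Pearson's r was 0.74, and 0.70 after leaving out the 2 cells at the extremes of the list. In the index groups rho was 0.57 to 0.85, and given genes per cell it was 0.56. The S phase means themselves left a gap between 2.75 and 3.25, with 15 cells above it and 35 below, and within these rho of Dnmt1 was 0.53 and 0.34. The i7 groups differed in Dnmt1 as well, which was seen in 16 of 18 cells of N708 to N710 and in 15 of 32 of N704 to N707.

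Ezh2 was next at 0.57 (percentile 98.8), with Pearson's r of 0.47 and 0.43 without the 2 farthest cells. It was 0.45 to 0.61 in the index groups, 0.38 above and 0.59 below the gap, and 0.35 given genes per cell. Unlike Dnmt1 it was frequent in cells without Mcm5 too, in 24 of 31, beside 18 of 19 with it.

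Rbbp4 (0.38), Cbx8 (0.37), Suz12 (0.36) and Rbbp7 (0.34) were also past 0.3 with the S phase list, with positive values in each of the 4 index groups. They moved with genes per cell too: given that number, rho was 0.02 for Rbbp4, 0.16 for Cbx8, 0.25 for Suz12 and 0.11 for Rbbp7, and these 4 no longer passed. Above the gap in S phase means, Rbbp4 was at -0.31 and Cbx8 at -0.07.

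The 3 members that went against the S phase list were Kdm5b (-0.38), Chd4 (-0.37) and Cbx7 (-0.34). All 3 were negative in each index group, at -0.52 to -0.23 for Kdm5b, -0.49 to -0.24 for Chd4 and -0.47 to -0.13 for Cbx7. Given genes per cell they were at -0.42, -0.37 and -0.31. Pearson's r was -0.48 for Kdm5b but only -0.20 for Chd4 and -0.21 for Cbx7, so the relations of Chd4 and Cbx7 are mainly ones of ranks. Cbx7, with a median of 0.058 TPM, was seen in 6 of 19 cells with Mcm5 and in 9 of 31 without it. Below the gap in S phase means Kdm5b was at -0.02, and above it at -0.52, so its pooled value was not found among the 35 cells with low means. Chd4 was at -0.20 below and -0.25 above the gap, and Cbx7 at -0.19 and -0.22. Given Prox1, Cbx7 alone remained past -0.3 (-0.35), with Chd4 just short of it (-0.298) and Kdm5b at -0.21. The count was unsteady: 1 member was past -0.3 in i5 indexes N506 to N517, 6 without the 1 cell under 3000 genes, and 5 without the cell with the highest Paneth sum. Tet2 (-0.28) and Kdm1a (-0.28) were the next lowest.

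With the G2/M list, 5 of 38 members were past 0.3 (13.2%), where 15.4% of all genes were, and 1 was past -0.3 (2.63%), where 1.53% were. Neither share stands away from that of all genes, and the medians were 0.11 for the members and 0.10 for all genes. Dnmt1 again led at 0.63 (percentile 99.3), with 0.48 to 0.77 in the index groups, and it was seen in 16 of 18 cells with the mitotic topoisomerase gene Top2a and in 15 of 32 without it. Given the S phase list it was 0.31, and given genes per cell 0.44. Rbbp4 (0.36), Cbx8 (0.36), Eed (0.33) and Mbd3 (0.31) were the others past 0.3, and Chd4 was the one past -0.3 (-0.31). All 5 kept their sign in each index group, but given genes per cell Rbbp4 was at 0.07, Cbx8 at 0.18, Mbd3 at 0.26 and Chd4 at -0.29, none of them past the threshold, while Eed stayed at 0.33. Given the S phase list, Rbbp4 and Cbx8 were both at 0.17, Chd4 at -0.11, Mbd3 at 0.34 and Eed at 0.46. Ezh2, high with the S phase list, was at 0.17 here. The next lowest were Jarid2 (-0.26), Kdm5b (-0.22), Gatad2a (-0.19) and Hdac5 (-0.17).

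**Figure D4:**
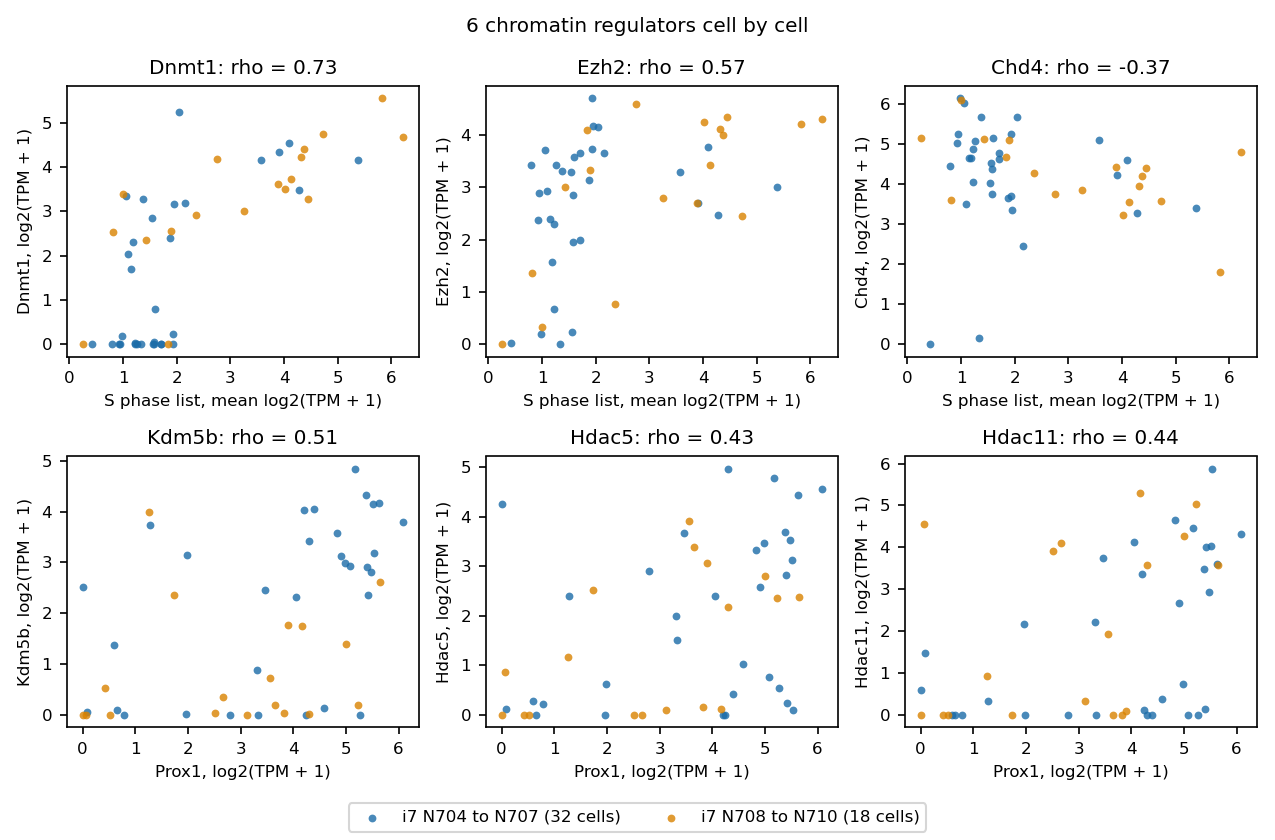
Levels of 6 regulators in 50 cells as log2(TPM + 1), against the S phase mean (Dnmt1, Ezh2, Chd4) or against Prox1 (Kdm5b, Hdac5, Hdac11); points are cells, colored by i7 index group. Dnmt1 is present in all cells with a high S phase mean, and Kdm5b was at 1 TPM or more in 2 of the 9 cells in which Prox1 was below it.

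The members were also set against each other. Of 703 pairs of the 38 members, 67 were past 0.3 (9.53%), where 4.63% of all pairs of genes were, and 7 were past -0.3 (0.996%), where 0.913% were. The median rho over these pairs was 0.08, against 0.05 over all pairs. Pairs share genes, so they are not separate observations.

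The highest pair joined the leading Prox1-positive members, Hdac5 and Kdm5b, at 0.53, and 0.49 given the S phase list. Cbx8 with Dnmt1 followed at 0.49 and Hdac2 with Hdac11 at 0.45, which given the S phase list were at 0.34 and 0.48. Ezh2 with Dnmt1 was at 0.43 but at 0.04 given the S phase list, so little of its relation was left. Hdac1 with Suz12 was at 0.43 and Tet2 with Tet3 at 0.42, both little changed by it (0.38 and 0.44). At the other end were Chd3 with Mbd3 (-0.37), Cbx2 with Ncor1 (-0.36) and Hdac6 with Hdac7 (-0.34), and Dnmt1 with Tet2 was at -0.33. Given the S phase list the first 3 were at -0.39, -0.36 and -0.34, and Dnmt1 with Tet2 at -0.18, no longer past the threshold.

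Of 15 pairs of related genes that can take the same place in a complex or reaction, Tet2 with Tet3 (0.42) and Mta1 with Mta2 (0.36) were past 0.3 (13.3%, beside 4.63% of all pairs). The other 13 lay between -0.12 for Cbx2 with Cbx7 and 0.26 for Cbx2 with Cbx8, with Hdac1 and Hdac2 at 0.07, Rbbp4 and Rbbp7 at 0.09, and Ezh1 and Ezh2 at 0.13. No such pair was past -0.3.

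**Figure D5:**
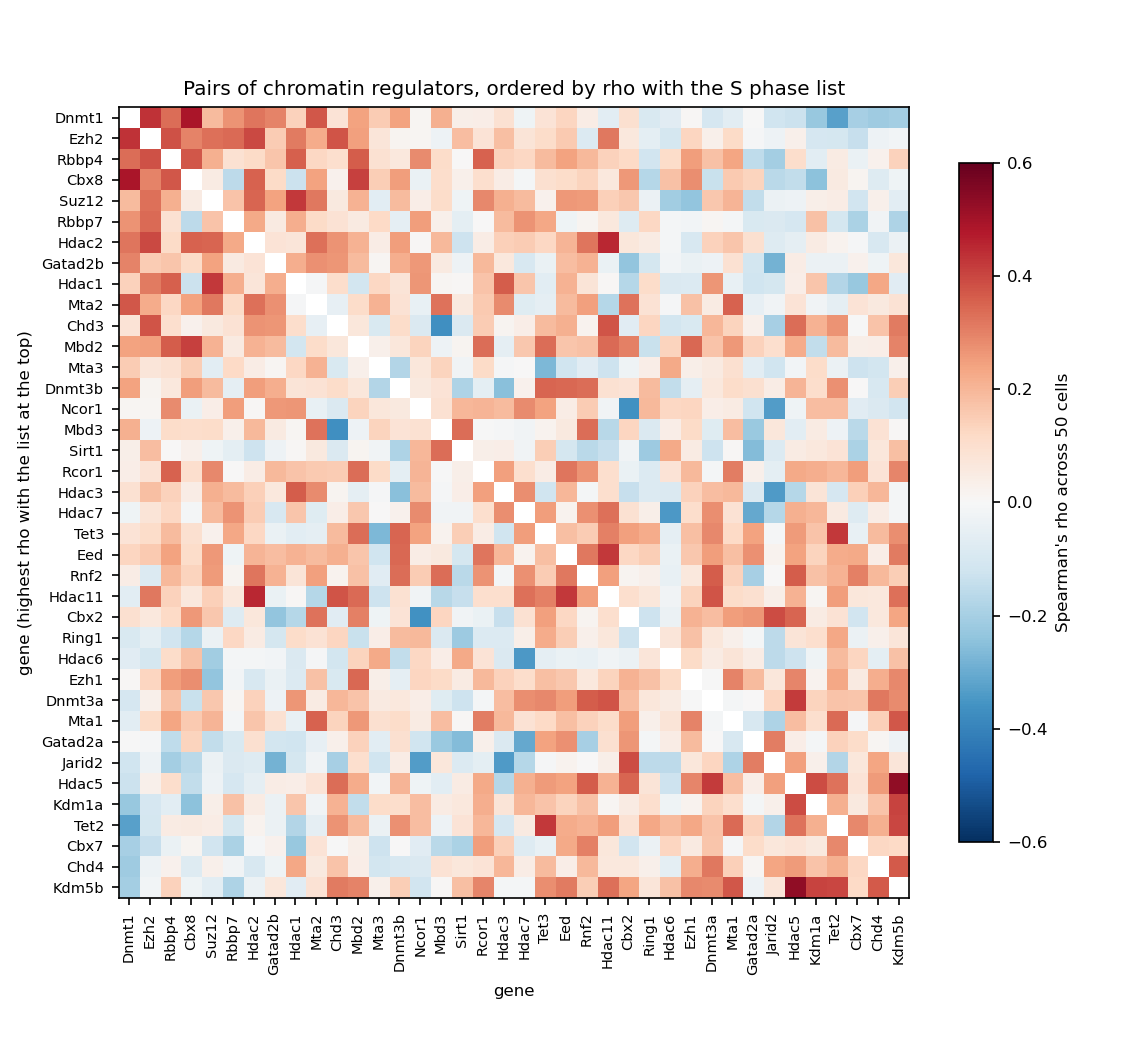
Spearman's rho of each pair of the 38 regulators across 50 cells, ordered on both axes by rho with the S phase list, highest at the top and left; color runs from blue (negative) to red (positive). The highest pair is Hdac5 with Kdm5b (0.53) and the lowest Chd3 with Mbd3 (-0.37).

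Other genes of the same pathways were read in the same way. Of 13 partners and readers of DNA methylation, 10 passed the filter, and 3 went with the S phase list past 0.3 (30%, beside 15.1% of all genes) while 3 went against Prox1 past -0.3 (30%, beside 3.26%). With so few genes, these shares describe the list and are not a test. Uhrf1, which guides DNMT1 to newly copied DNA, was seen in 13 cells and had rho of 0.74 with the S phase list, 0.59 with the G2/M list and -0.44 with Prox1. Hells, a remodeler needed for DNA methylation, was seen in 15 cells and had 0.71, 0.52 and -0.57. Given the S phase list, Uhrf1 was at -0.20 with Prox1, and Hells at -0.42, while rho with G2/M was 0.22 and 0.12. In the index groups rho with Prox1 was -0.65 to -0.20 for Uhrf1 and -0.64 to -0.38 for Hells. Dnmt1 was seen in 12 of 13 cells with Uhrf1 and in 19 of 37 without it. The most frequent of this list were Trim28, Idh2 and Idh1, in 48, 47 and 46 cells, and Idh1 was at -0.32 with Prox1.

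Among 23 other Polycomb genes, 21 passed the filter, and 4 were past 0.3 with Prox1 (19.05%, where 8.58% of all genes were): Rybp (0.37), Asxl1 (0.36), Bmi1 (0.32) and Pcgf1 (0.31), while none went past the threshold with either cycle list. The median of this list with Prox1 was 0.10, the same as over the 38 members. Asxl2, a subunit of the Polycomb deubiquitinase complex, was the most frequent (47 cells), ahead of Phc2 (40) and of Asxl1 and L3mbtl2 (35 each). Of 27 other genes of deacetylase complexes and sirtuins, 26 passed, and 4 were past 0.3 with Prox1 (15.4%, beside the same 8.58%), led by the Sin3 complex gene Arid4b (0.42, 32 cells). In the index groups Arid4b was at 0.30 to 0.62, and given the S phase list at 0.35. Cdk2ap1, Hmg20b and Suds3 were seen in 49, 47 and 45 cells, and the corepressor gene Gps2 was at 0.48 with the S phase list (0.26 to 0.60 in the index groups, 0.45 given genes per cell).

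Of 18 further acetyltransferases, methyltransferases and demethylases, 16 passed. The list is mixed: beside genes that act against silencing it holds Kdm5a, Kdm5c and Kdm1b, relatives of Kdm5b and Kdm1a. Past 0.3 with the S phase list were 5 (31.2%, beside 15.1% of all genes), led by the acetyltransferase gene Kat5 (0.49, 27 cells), which was at 0.21 to 0.55 in the index groups and 0.36 given genes per cell. Past 0.3 with Prox1 were 2 (12.5%, beside 8.58%), led by Kdm6a (0.49, 21 cells), which removes the PRC2 mark and was at 0.38 to 0.59 in the index groups and 0.41 given the S phase list. Kat7 and Kdm6b were the most frequent, in 46 and 43 cells, followed by Kmt2c and Kdm5c in 35 each. Of the 73 genes of these 4 lists that passed, 0 went past -0.3 with the S phase list, beside 0.862% of all genes.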

How the data were processed

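Single-cell RNA-seq (Bead-seq, per the labels) of 1 mouse was described. The authors deposited TPM for each gene ID in 56 libraries. Per the submitters' processing notes the build was GRCm38.p4 and the tools were Bowtie2 2.2.9, RSEM 1.2.31 and bcl2fastq 1.8.4; their settings, annotation release and strand use were not stated. Columns were matched to samples by index pair. TPM carry no depth, so no precision from reads can be given.

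Symbols and coordinates came from GENCODE M21 (24235 IDs matched, 175 did not) and promoters from RefSeq GRCm38.p6. Near-identical copies were sought with BLAST 2.17.0 (at least 95% identity over 200 bases). Libraries correlated above 0.9 on log2(TPM + 1) were averaged. A gene was called seen at 1 TPM or more. Relations were Spearman's rho over genes seen in at least 20% of cells; all 9166 such genes gave the background, and no p-values were computed because cells of 1 mouse are not replicates. Intervals are exact Clopper-Pearson at 95%. The code for rho was tested on shuffled values with strong relations planted only in genes seen in nearly all cells. How well it finds weaker relations, or those of genes seen in fewer cells, was not tested. The members and lists were chosen with earlier results of these data known.

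Named genes were all members, with levels for the 3 seen in most cells per role and rho for the 5 highest and 5 lowest by each relation, and in each further list the 3 seen in most cells and those past 0.4 or -0.4. Rybp, Asxl1, Bmi1, Pcgf1, the pairs of members and the genes of joint counts were named after their values were seen. Alternatives were detection above 0 or at 10 TPM, Pearson's r, pseudocounts of 0.1 and 10, partial rho, index groups, leaving out each i5 index, TPM without ribosomal protein genes and Gm10925, and leaving out the cell under 3000 genes. Partial rho given Prox1, the split at the gap in S phase means and leaving out the cell with the highest Paneth sum were chosen after seeing the data. Analysis used SciPy 1.17.1, pandas 2.3.3, numpy 2.4.6, matplotlib 3.10.9 and Python 3.11.15.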

Additional observations from a re-analysis of the deposited data

How the results depend on the processing

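Over single regulators, 806 values under alternatives were compared for 38 results (rho and counts of cells): 686 stayed within 0.1 of the rho or within the exact interval of the share of cells, 119 moved further, and 1 called relation changed sign, Tet2 with Prox1, at -0.10 in i5 indexes N506 to N517. Some of these values could not move. A pseudocount leaves the ranks of single genes unchanged, so it cannot alter rho with Prox1, and a filter of 3 cells cannot alter the rho of a single gene. The number that stayed is therefore no measure of how steady the relations are. The median over pairs of members stayed between 0.06 and 0.11. At 10 TPM, 7 members were seen in 25 or more cells in place of 30. The counts were less steady than the leading relations. Past -0.3 with Prox1 (main 1) were 0 with Pearson's r, in i7 indexes N708 to N710 and given the S phase list, and 2 in each other index group; past 0.3 with Prox1 (main 7) were 13 in i5 indexes N502 to N505. Past -0.3 with the S phase list (main 3) were 6 without the cell under 3000 genes, 5 without the cell with the highest Paneth sum, 8 given genes per cell, 1 given Prox1, 5 in i7 N708 to N710, 7 in i5 N502 to N505 and 1 in i5 N506 to N517, and 2 to 7 when each i5 index was left out in turn. Past 0.3 with it (main 6) were 2 given genes per cell and 5 to 9 when each i5 index was left out, and the median over members (main 0.04) was -0.13 given genes per cell. With the G2/M list the median (main 0.11) was -0.026 given genes per cell. Past 0.3 with that list (main 5) were 3 without the cell under 3000 genes, 2 given genes per cell, 8 in i7 N704 to N707, 14 in i7 N708 to N710, 9 in i5 N502 to N505, and 2 to 8 when each i5 index was left out. Past -0.3 with it (main 1) were 0 in TPM without ribosomal protein genes and Gm10925, without the cell under 3000 genes, with a pseudocount of 10 and given genes per cell, the S phase list or Prox1, 2 in i7 N708 to N710 and without the cell with the highest Paneth sum, 5 in i5 N502 to N505, and 0 to 2 when each i5 index was left out. The causes were not tested. Partial rho given Prox1 and the left-out Paneth cell were chosen after seeing the data. No paired analysis was possible because the series holds 1 group, with replicate numbers given in accession order only. TPM carry no depth, so low and absent values cannot be told apart by sampling error.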
